A study of Mus musculus with 10 samples.

Results

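The mouse genes *H2-K1*, *H2-D1*, *H2-T23*, *B2m*, *Tap1*, *Tap2*, *Tapbp*, *Psmb8*, *Psmb9* and *Nlrc5*, which encode MHC class I molecules, the proteins that load them, 2 subunits of the immunoproteasome and a transactivator of class I genes, were examined in thoracic aortas with and without deletion of *Prdm16* in smooth muscle. The 10 genes were taken by symbol from the 55426 genes of the RNA-Seq table, and all 10 were among the 15668 genes tested. None of the 10 reached an adjusted *P* under 0.05 by limma between the groups. The deleted gene *Prdm16* did not reach it either (adjusted *P* = 0.072 by limma), so the 10 genes cannot be taken as unchanged. The values in each aorta, the companions of these genes in the same pathway and the PRDM16 ChIP-Seq peaks around them are described.

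The control mice carried floxed *Prdm16* alleles without Cre (Prdm16f/f), and the Prdm16SMKO mice carried the same alleles with SMMHC-CreERT2, a tamoxifen-dependent Cre expressed from the *Myh11* promoter. The transgene lies on the Y chromosome, and the levels of *Ddx3y* and *Xist* were those of males in all 6 aortas. Tamoxifen was given at 8 weeks of age for 5 days with a washout of 2 weeks. Whether the control mice received it, and the age at which these aortas were taken, are not given in the sources used here. Each group had 3 aortas with 1 library each, numbered in the labels without naming the animals, so *P* values measure the spread between these samples. ChIP-Seq was performed with an anti-Flag antibody in primary wild-type vascular fibroblasts, which are not smooth muscle cells. They were infected for 48 hours with empty vector or with a vector for Flag-tagged PRDM16, a transcriptional regulator that is then overexpressed, and puromycin at 2 μg/mL was then used for 1 week to select them. There was 1 anti-Flag library per condition.

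MHC class I molecules display peptides from inside the cell to CD8 T cells and consist of a heavy chain paired with β2-microglobulin. The peptides are cut by the proteasome, pumped into the endoplasmic reticulum by the TAP transporter and loaded with the help of tapasin. Interferon-γ induces most of these genes and exchanges 3 catalytic subunits of the proteasome for inducible ones, which gives the immunoproteasome. Most nucleated cells express class I molecules, including those of the vessel wall, and leukocytes express them strongly.

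*Prdm16* was 56.1, 47.6 and 40.3 TPM (transcript abundance scaled to the same total in each library) in the control aortas and 23.3, 33.3 and 23.4 TPM in the Prdm16SMKO aortas, with no overlap between the groups (log2 fold change −0.85, SE 0.18, adjusted *P* = 0.072 by limma). Smooth muscle markers summed to 19527 to 22509 TPM in the controls and 12883 to 16540 TPM in Prdm16SMKO, and in whole tissue fewer cells of a type and less RNA per cell cannot be told apart. Between 13331 and 14007 genes reached 1 TPM in an aorta. TPM are shares of a library, and 1 gene held 20.2% to 28.2% of an aorta's total and mitochondrial genes 14.7% to 26.5%. The table holds no counts, and the depth of each library is unknown here. The median log2 fold change of all genes tested was −0.12, and each fold change below is on the log2(TPM + 0.1) scale, Prdm16SMKO minus control.

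In the control aortas the light chain *B2m* had the highest level of the 10 genes, at 376 ± 20.5 TPM (SD, n = 3). The heavy chains *H2-D1* and *H2-K1* followed at 147 ± 11.0 and 136 ± 30.6 TPM (SD, n = 3 each), and their values overlapped. *Tapbp* was at 79.0 ± 6.86 TPM (SD, n = 3). The nonclassical heavy chain *H2-T23* and the transporter gene *Tap2* came next at 16.1 ± 1.50 and 13.6 ± 1.39 TPM (SD, n = 3 each) and also overlapped. *Psmb8* was at 8.80 ± 1.85 and *Tap1* at 3.80 ± 0.260 TPM (SD, n = 3 each), so that the mRNAs of the 2 chains of the TAP transporter were not at the same level. The lowest were *Psmb9* at 2.24 ± 0.942 and *Nlrc5* at 1.75 ± 0.360 TPM (SD, n = 3 each), which overlapped. TPM are scaled by transcript length and can therefore be set side by side between genes.

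**Figure D1:**
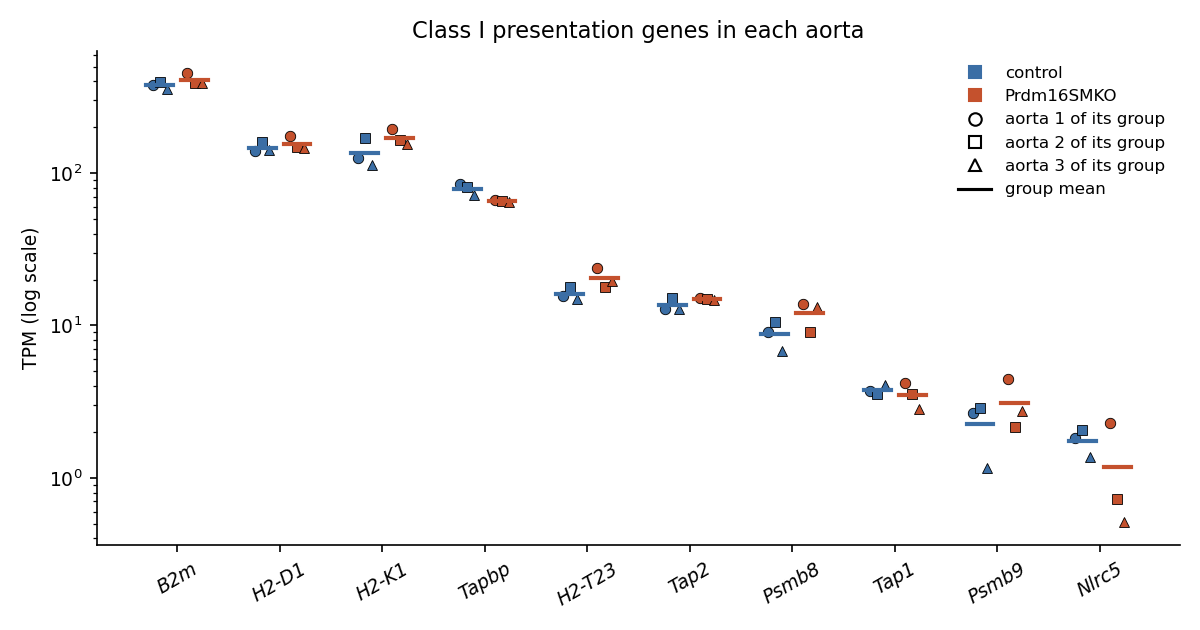
TPM of each of the 10 genes in each aorta on a log scale, ordered by the control mean. Colors mark the groups, point shapes the aorta number within its group, and horizontal bars the group means. With the TPM as deposited, the groups overlap for 8 genes, and *H2-T23* is higher and *Tapbp* lower in every Prdm16SMKO aorta. *Nlrc5* has the widest spread in Prdm16SMKO.

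Of the 10 genes, 0 were called by limma at an adjusted *P* under 0.05 (1 had an unadjusted *P* under 0.05), where 1.07% of all genes tested were called (168 genes, 61 higher and 107 lower in Prdm16SMKO) and 12.7% had an unadjusted *P* under 0.05. The log2 fold change was above 0 for 7 of the 10, against 32.1% of all genes tested, and the median of the 10 was 0.13. Because the 10 genes are few and were chosen, these counts are a description. In 1 gene every Prdm16SMKO aorta was higher than every control aorta, a pattern found in 4.08% of all genes tested, and in 1 gene every one was lower, found in 14.9%. The sign split stayed 7 to 3 after rescaling the aortas by their median ratio, by quantiles, or without mitochondrial genes and the top gene. These rescalings moved the median of all genes to 0.00024, −0.0053 and −0.0185, so the 32.1% holds only for the TPM as deposited. Neither the share of all genes above 0 nor the overlap of the groups was computed after rescaling. Without Prdm16SMKO aorta 1 the split was 6 to 4, and without Prdm16SMKO aorta 3 it was 8 to 2.

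Among the heavy chains, *H2-K1* and *H2-D1* encode the classical molecules of the mouse, and *H2-T23* encodes a nonclassical one that presents leader peptides of other class I proteins. *H2-K1* (ENSMUSG00000061232; chromosome 17, 33996017 to 34000347, reverse strand, GRCm38) had 125, 171 and 112 TPM in the control aortas and 193, 165 and 155 TPM in the Prdm16SMKO aortas. Control aorta 2 lay within the Prdm16SMKO range, so the groups overlapped (log2 fold change 0.34, SE 0.17, adjusted *P* = 0.44 by limma). *H2-D1* (ENSMUSG00000073411; chromosome 17, 35262730 to 35267499, forward strand) had 140, 160 and 141 TPM in the controls and 174, 148 and 146 TPM in Prdm16SMKO. Its log2 fold change was 0.08 (SE 0.12, adjusted *P* = 0.82 by limma), with a 95% interval from a ratio of 0.880 to one of 1.27, and without Prdm16SMKO aorta 1 it was −0.0024. *H2-T23* (ENSMUSG00000067212; chromosome 17, 36029773 to 36032855, reverse strand) had 15.5, 17.8 and 14.9 TPM in the controls and 23.8, 17.8 and 19.4 TPM in Prdm16SMKO. The groups did not overlap, but the gap was small, from 17.76 TPM in control aorta 2 to 17.80 TPM in Prdm16SMKO aorta 2 (log2 fold change 0.33, SE 0.15, adjusted *P* = 0.42 by limma).

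*H2-K1* and *H2-D1* are close copies. The sequence just before their RefSeq starts is shown because it holds some of the elements through which class I genes are known to be regulated. It also shows how alike the genes are. The stretch of 177 bases ends 2 bases before the RefSeq start of *H2-K1* (GRCm38.p6, chr17:34000349-34000525, reverse strand) and 62 bases before that of *H2-D1* (chr17:35262856-35263032, forward strand). The first GENCODE start of *H2-D1*, at 35262730, lies upstream of its stretch, which is therefore before the start by RefSeq only. Capitals mark, from left to right, a match to the NF-κB letters GGGNNTTCC, the X2 box core TGACGC and the Y box CCAAT read on the other strand:
H2-K1: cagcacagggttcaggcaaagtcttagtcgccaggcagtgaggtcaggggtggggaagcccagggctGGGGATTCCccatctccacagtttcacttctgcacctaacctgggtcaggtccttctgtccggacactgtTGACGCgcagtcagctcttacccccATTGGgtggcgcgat
H2-D1: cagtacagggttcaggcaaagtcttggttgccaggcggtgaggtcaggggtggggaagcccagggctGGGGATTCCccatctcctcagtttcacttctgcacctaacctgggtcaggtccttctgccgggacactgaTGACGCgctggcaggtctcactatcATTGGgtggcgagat
The stretches were identical at 161 of 177 positions (91.0%), and all 3 marked elements occurred at the same places in both. Searched on both strands of windows from 250 bases before to 50 bases after each RefSeq start, GGGNNTTCC was present in 5.82% of 32817 windows, TGACGC in 7.39% and CCAAT in 37.4%. The submitters' processing notes list RSEM, which divides reads that fit several genes by estimate, so levels of near-identical class I genes are less certain than those of single-copy genes.

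*B2m* (ENSMUSG00000060802; chromosome 2, 122147686 to 122153083, forward strand), the invariant light chain of every class I molecule, had 376, 397 and 356 TPM in the control aortas and 452, 391 and 388 TPM in the Prdm16SMKO aortas. The groups overlapped (log2 fold change 0.12, SE 0.11, adjusted *P* = 0.68 by limma), and the 95% interval ran from a ratio of 0.919 to one of 1.29. The 150 bases before its RefSeq start (GRCm38.p6, chr2:122147537-122147686, forward strand) are shown for comparison with the heavy chains, with the ISRE core letters GAAANNGAAA, an interferon response element, and the Y box in capitals:
B2m: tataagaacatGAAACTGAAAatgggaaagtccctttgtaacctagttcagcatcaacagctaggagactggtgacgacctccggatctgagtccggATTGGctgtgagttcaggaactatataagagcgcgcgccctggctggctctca
The ISRE core letters were in 3.43% of all windows and, among the 8 of the 10 genes found in the RefSeq promoter table, in those of *B2m* and *H2-T23*. The letters TTCNNNGAA of the γ-interferon activation site, present in 8.29% of windows, were found at *Psmb8* only, and CCAAT at the other 7. *Tap2* and *Nlrc5* are not in that table. These matches describe letters and are not evidence of binding. Only exact matches were counted. A gene without one, such as *H2-K1* or *H2-D1* for the ISRE core, may still hold an element that departs from these letters. The ratio of *B2m* to the sum of *H2-K1* and *H2-D1*, which does not depend on how an aorta is scaled, was 1.41, 1.20 and 1.40 in the controls and 1.23, 1.25 and 1.29 in Prdm16SMKO (exact permutation test, 2-sided *P* = 0.4).

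*Tap1* and *Tap2* encode the partners that form the peptide transporter, and *Tapbp* encodes tapasin, which holds an empty class I molecule at the transporter. *Tap1* (ENSMUSG00000037321; chromosome 17, 34187553 to 34197225, forward strand) had 3.74, 3.57 and 4.08 TPM in the control aortas and 4.18, 3.54 and 2.83 TPM in the Prdm16SMKO aortas. Prdm16SMKO held both the highest and the lowest value (log2 fold change −0.12, SE 0.21, adjusted *P* = 0.85 by limma), and the log2 fold change was 0.02 without Prdm16SMKO aorta 3. *Tap2* (ENSMUSG00000024339; chromosome 17, 34203527 to 34216321, forward strand) had 12.8, 15.2 and 12.9 TPM in the controls and 15.1, 14.9 and 14.8 TPM in Prdm16SMKO (log2 fold change 0.14, SE 0.13, adjusted *P* = 0.71 by limma). Its highest value was that of control aorta 2, so the groups overlapped. *Tapbp* (ENSMUSG00000024308; chromosome 17, 33915899 to 33929292, forward strand) had 84.4, 81.4 and 71.3 TPM in the controls and 66.9, 65.6 and 64.8 TPM in Prdm16SMKO. Every Prdm16SMKO aorta was below every control aorta, and this was the gene with an unadjusted *P* under 0.05 with the TPM as deposited (log2 fold change −0.26, SE 0.11, adjusted *P* = 0.37 by limma). After the 3 rescalings the log2 fold change of *Tapbp* was −0.16 to −0.11 and its 95% interval spanned 0. The intervals of *H2-K1*, with log2 fold changes of 0.44 to 0.50, and of *H2-T23*, with 0.43 to 0.45, then lay above 0, as did that of *B2m* after quantile normalization. None of these genes was called under any scaling, with adjusted *P* by limma of 0.22 or more.

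Of the other genes of peptide trimming and loading, 8 of 8 had log2 fold changes below 0 with the TPM as deposited and 7 of 8 after each of the 3 rescalings. The median was −0.20 as deposited, beside −0.12 for all genes tested, and −0.10 to −0.06 after the rescalings. As deposited, 32.1% of all genes tested were above 0, and 0 genes of this list were called by limma. *Calr*, which encodes calreticulin, a chaperone of the loading complex, had 501, 460 and 499 TPM in the controls and 366, 384 and 310 TPM in Prdm16SMKO with no overlap (log2 fold change −0.47, SE 0.11, adjusted *P* = 0.11 by limma), and it was called in 1 of 15 alternatives, after rescaling without mitochondrial genes and the top gene (adjusted *P* = 0.041 by limma). *Tapbpl*, a tapasin-like peptide editor, and *Pdia3*, a thiol oxidoreductase of the loading complex, had log2 fold changes of −0.29 and −0.27 (adjusted *P* = 0.61 and 0.35 by limma).

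*Psmb8* and *Psmb9* encode catalytic subunits of the immunoproteasome. *Psmb8* (ENSMUSG00000024338; chromosome 17, 34197721 to 34201454, forward strand) had 9.11, 10.5 and 6.81 TPM in the control aortas and 13.9, 9.02 and 13.3 TPM in the Prdm16SMKO aortas. Prdm16SMKO aortas 1 and 3 were above all controls and aorta 2 was within their range (log2 fold change 0.45, SE 0.22, adjusted *P* = 0.45 by limma). *Psmb9* (ENSMUSG00000096727; chromosome 17, 34181987 to 34187764, reverse strand) had 2.67, 2.89 and 1.16 TPM in the controls and 4.48, 2.15 and 2.73 TPM in Prdm16SMKO (log2 fold change 0.49, SE 0.39, adjusted *P* = 0.64 by limma). The interval of *Psmb9* ran from a ratio of 0.758 to one of 2.62, so a lower level and one more than 2-fold higher both lay within it. *Psmb9* and *Tap1* overlap at their starts on opposite strands, and whether the counting used strand is not given in the sources used here.

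Each inducible subunit takes the place of a constitutive one, *Psmb8* of *Psmb5*, *Psmb9* of *Psmb6* and *Psmb10* of *Psmb7*, and the ratio of the mRNAs was compared within each aorta. *Psmb8* was 10.7%, 12.1% and 8.04% of *Psmb5* in the controls and 19.7%, 11.5% and 19.3% in Prdm16SMKO (1.62-fold, exact permutation test, 2-sided *P* = 0.2). *Psmb9* was 1.50%, 1.78% and 0.689% of *Psmb6* in the controls and 3.17%, 1.36% and 2.02% in Prdm16SMKO (1.68-fold, exact permutation test, *P* = 0.3). *Psmb10* was 15.0%, 11.3% and 14.8% of *Psmb7* in the controls and 22.8%, 21.9% and 19.9% in Prdm16SMKO (1.58-fold, exact permutation test, *P* = 0.1). The groups overlapped for the first and second of these ratios and did not for *Psmb10* to *Psmb7*. Without control aorta 3 the log2 difference of the *Psmb9* to *Psmb6* ratio went from 0.75 to 0.33, and without Prdm16SMKO aorta 1 to 0.44. The log2 fold change of *Psmb9* itself was then 0.097 and 0.21. With 3 aortas against 3 the test cannot go below 0.1, and the Benjamini-Hochberg value over the 3 ratios was 0.3 for each. In all 6 aortas the constitutive mRNA was more abundant than the inducible one.

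**Figure D2:**
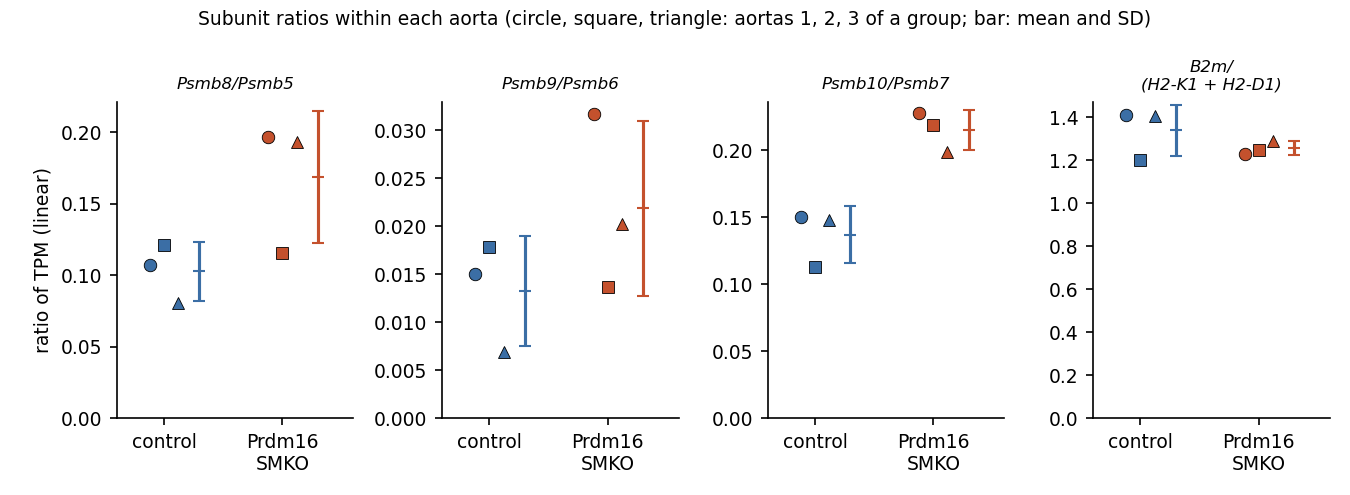
Ratio of TPM within each aorta for the 3 pairs of inducible and constitutive proteasome subunits and for *B2m* over the sum of *H2-K1* and *H2-D1*, on linear axes that start at 0. Points are aortas and bars the mean ± SD of 3. The groups are apart for *Psmb10* to *Psmb7*, while Prdm16SMKO aorta 2 lies within the control range for the *Psmb8* and *Psmb9* ratios.

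The genes of the *Psmb10* ratio had log2 fold changes of opposite sign, and the part of each in the ratio depends on the scaling. As deposited, *Psmb10*, the remaining inducible catalytic subunit, had a log2 fold change of 0.29 (SE 0.16, adjusted *P* = 0.49 by limma), and its groups overlapped. *Psmb7* had one of −0.36 (SE 0.10, adjusted *P* = 0.17 by limma). After the rescalings they were 0.39 to 0.41 for *Psmb10* and −0.27 to −0.21 for *Psmb7*, and neither gene was called. All 14 genes of the constitutive proteasome core had log2 fold changes below 0 with the TPM as deposited, and 10 to 12 of the 14 after the rescalings. The median was −0.22 as deposited and −0.12 to −0.07 after the rescalings. As deposited, in 8 of the 14 every Prdm16SMKO aorta was lower than every control aorta (14.9% of all genes tested), and 0 were called. The overlap of the groups depends on how each aorta is scaled and was not computed after rescaling. *Psma1* and *Psma5*, subunits of its outer rings, had log2 fold changes of −0.30 and −0.29 (adjusted *P* = 0.31 and 0.37 by limma). Of the other genes of the inducible proteasome, the assembly factor *Pomp* had 94.2, 116 and 98.3 TPM in the controls and 77.8, 79.7 and 66.2 TPM in Prdm16SMKO (log2 fold change −0.46, SE 0.13, adjusted *P* = 0.16 by limma). The subunits of the PA28 activator, *Psme1* and *Psme2*, had log2 fold changes of −0.11 and 0.05 (adjusted *P* = 0.77 and 0.93 by limma).

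*Nlrc5* encodes a member of the NLR family that acts with promoter-bound factors at class I genes. *Nlrc5* (ENSMUSG00000074151; chromosome 8, 94434356 to 94527272, forward strand) had 1.82, 2.07 and 1.36 TPM in the control aortas and 2.3, 0.73 and 0.51 TPM in the Prdm16SMKO aortas. Prdm16SMKO aorta 1 had the highest value of all 6 and the other two had the lowest, so the groups overlapped (log2 fold change −0.77, SE 0.51, adjusted *P* = 0.57 by limma). The coefficient of variation was 20.6% in the controls and 82.7% in Prdm16SMKO. The log2 fold change was −1.36 without Prdm16SMKO aorta 1, −0.37 without Prdm16SMKO aorta 3 and −0.41 with a pseudocount of 1, and over the 15 alternatives the adjusted *P* by limma ranged from 0.33 to 0.87. The genes whose profile over the 6 aortas was closest to that of *Nlrc5*, by the root mean square difference of centered log2 values among 13684 genes, were *Trf* at 0.245, *2010001K21Rik* at 0.248, *Plekha7* at 0.273, *Stk11ip* at 0.279 and *Vipr2* at 0.280. No gene came within 0.2 of it.

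The next list holds genes that carry the interferon-γ signal and factors that bind class I promoters. Of 20 such genes, 18 were tested, 0 were called, 6 had log2 fold changes above 0 (9 or 10 after rescaling), and the median was −0.09, beside −0.12 for all genes. *Rfxap*, a subunit of the RFX complex that binds the X box, had 20.6, 21.2 and 20.6 TPM in the controls and 30.8, 35.7 and 22.6 TPM in Prdm16SMKO with no overlap (log2 fold change 0.49, SE 0.17, adjusted *P* = 0.27 by limma). *Rfxank*, another subunit of the same complex, and *Nfya*, of the complex that binds the Y box, had log2 fold changes of −0.31 and −0.23 (adjusted *P* = 0.62 and 0.51 by limma). *Irf1*, an early target of interferon-γ and named here for that role after its values were seen, had a log2 difference of 0.09 (SE 0.16, adjusted *P* = 0.85 by limma). *Ifng* itself was listed at 0 in all 6 aortas.

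Of 16 other class I genes 9 were tested, 0 were called, 8 had log2 fold changes above 0 (9 after rescaling) and the median was 0.38. It was 0.17 without Prdm16SMKO aorta 3 and 0.58 without Prdm16SMKO aorta 2, with 7 of 9 above 0 in both. *H2-Q6* had 2.10, 3.07 and 3.16 TPM in the controls and 16.2, 5.61 and 6.40 TPM in Prdm16SMKO, with no overlap (log2 fold change 1.58, SE 0.38, adjusted *P* = 0.10 by limma). *H2-Q4* had 10.4, 13.1 and 11.8 TPM in the controls and 27.8, 15.95 and 18.7 TPM in Prdm16SMKO, also with no overlap (log2 fold change 0.78, SE 0.21, adjusted *P* = 0.15 by limma). The study's own analysis, by a test that its methods do not name, lists *H2-Q4* as upregulated with a PRDM16 promoter peak. *H2-Q7* had 2.47, 5.0 and 2.40 TPM in the controls and 12.4, 3.82 and 7.81 TPM in Prdm16SMKO, where control aorta 2 lay above Prdm16SMKO aorta 2 (log2 fold change 1.19, SE 0.43, adjusted *P* = 0.29 by limma). How alike the *H2-Q* genes are to each other was not measured here. Where reads fit several of them, their separate levels are uncertain for the reason given for *H2-K1* and *H2-D1*.

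**Figure D3:**
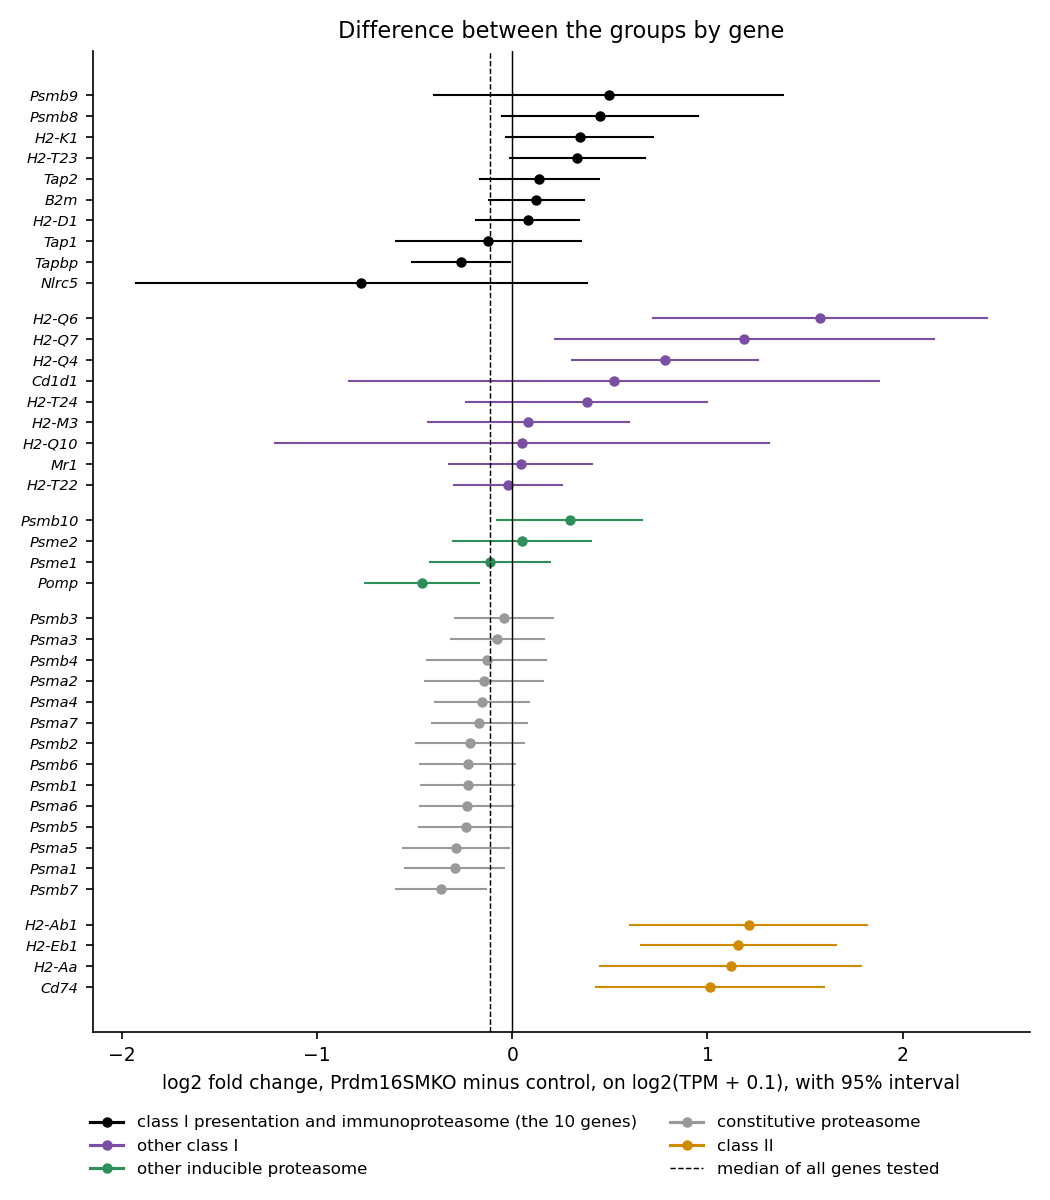
Log2 fold change of each gene, Prdm16SMKO minus control, on the log2(TPM + 0.1) scale, with its 95% interval, for the 10 genes and their companion lists. The dashed line is the median of all genes tested, −0.12. Of the 10 genes only the interval of *Tapbp* lies wholly on one side of 0, whereas after rescaling it spans 0 and those of *H2-K1* and *H2-T23*, and of *B2m* in 1 of 3 rescalings, lie above 0. The constitutive proteasome genes lie left of 0 (10 to 12 of the 14 after rescaling), and the class II genes lie between 1.01 and 1.21.

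With the TPM as deposited, the aortas did not contribute evenly. Prdm16SMKO aorta 1 had the highest value of its group for 10 of the 10 genes, against 23.4% of all genes tested, and the highest value of all 6 aortas for 8 of them. Control aorta 2 was the highest control for 8 of 10 (22.1% of all genes), and control aorta 3 the lowest control for 7 of 10 (53.6%). As a median over the 10 genes, the centered log2 level was −0.08, 0.09 and −0.14 in the controls and 0.28, −0.03 and 0.01 in Prdm16SMKO. These ranks and levels depend on how each aorta is scaled and were not computed after rescaling. The median-ratio rescaling divided the control aortas by 1.16, 1.02 and 0.961 and the Prdm16SMKO aortas by 0.951, 1.05 and 0.891, so close values can change order.

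Markers of other cells also differed between aortas. The 4 class II genes *H2-Aa*, *H2-Ab1*, *H2-Eb1* and *Cd74*, found in professional antigen-presenting cells, summed to 40.6, 44.4 and 33.1 TPM in the controls and 122, 59.3 and 82.7 TPM in Prdm16SMKO, and Prdm16SMKO aorta 1 was again the highest. *H2-Eb1* was called, with a log2 fold change of 1.16 (SE 0.22, adjusted *P* = 0.0497 by limma), but it missed the threshold in 10 of 15 alternatives, with adjusted *P* values by limma of up to 0.18. *H2-Ab1* and *H2-Aa* had log2 fold changes of 1.21 and 1.12 (adjusted *P* = 0.084 and 0.14 by limma), and both were called without Prdm16SMKO aorta 2 (adjusted *P* = 0.034 and 0.027 by limma). The study's own analysis lists *H2-Ab1* as upregulated. The 5 general leukocyte markers, which included *Ptprc* and *Coro1a*, summed to 8.71, 8.30 and 6.57 TPM in the controls and 13.3, 6.94 and 14.8 TPM in Prdm16SMKO, and 0 of 5 were called. The 7 macrophage markers summed to 66.3 to 92.5 TPM and 53.4 to 90.2 TPM, with 0 called. All 6 T and NK cell markers and all 3 B cell markers were below the level tested, and the T and NK cell markers summed to 0.54 to 1.45 TPM in the controls and 0.48 to 3.79 TPM in Prdm16SMKO. *Klrb1c*, a defining marker of NK cells, was at 0 in all aortas. The 5 endothelial markers summed to 89.2, 95.4 and 108 TPM in the controls and 135, 58.2 and 90.8 TPM in Prdm16SMKO. This sum was highest in Prdm16SMKO aorta 1, as were *Pecam1*, *Vwf* and *Tek*, but *Cdh5* and *Kdr* were not. *Cdh5* was 18.23 TPM there and 27.09 TPM in control aorta 2. *Kdr* was 5.15 TPM there and 6.31 TPM in Prdm16SMKO aorta 2. The 5 adipocyte markers summed to 405, 1621 and 765 TPM in the controls, with control aorta 2 the highest, and to 557, 464 and 1154 TPM in Prdm16SMKO. The part of these cells in the class I and proteasome values was not tested.

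**Figure D4:**
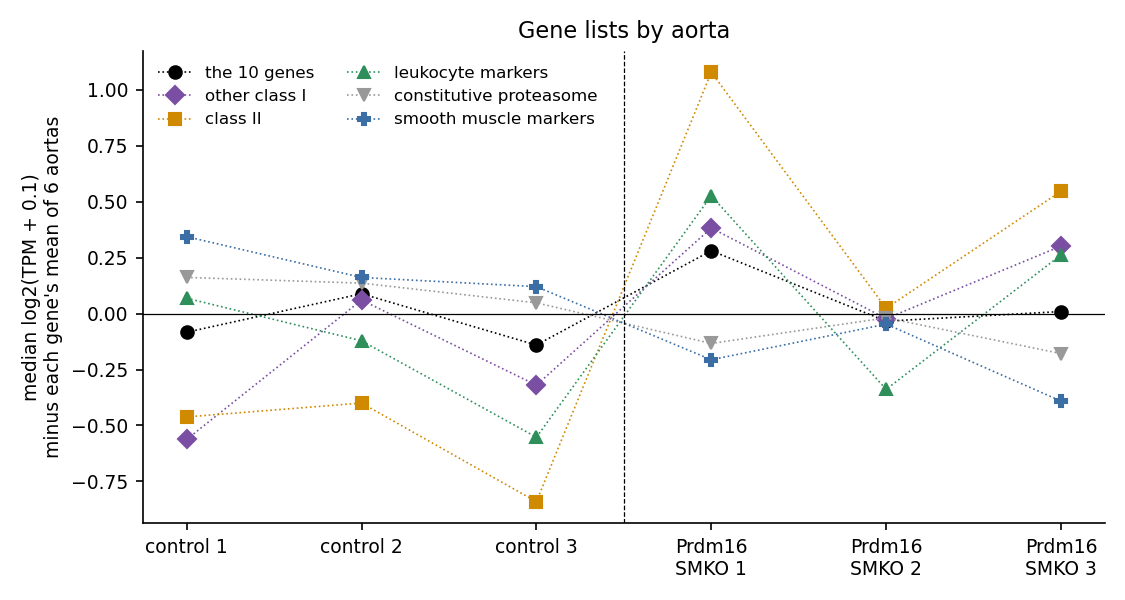
Median over the genes of each list of the log2(TPM + 0.1) value minus that gene's mean of the 6 aortas, by aorta, with the TPM as deposited. Dotted lines only join points of the same list. Prdm16SMKO aorta 1 is the highest aorta for the 10 genes, the other class I genes, the class II genes and the leukocyte markers, and Prdm16SMKO aorta 2 lies near or below 0 for the same lists.

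The PRDM16 ChIP-Seq list of the fibroblasts was searched for peaks with their center within 2 kb of a transcription start of each gene. It held such a peak at 3 of the 10 genes, *H2-K1*, *B2m* and *Nlrc5*, where 38.8% of the genes tested in the aorta had one, so the share among the 10 was near that of genes in general. The fold enrichment, the authors' ratio at the peak summit over local background, had a median of 5.27 over the 11271 peaks. The reference sequence around the summit is given for each of these genes.

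At *H2-K1* the peak from 33999995 to 34000264 on chromosome 17 was centered 217.5 bp downstream of the first start, with its summit in an intron, a fold enrichment of 5.63 and a −log10 q of 6.31. Another peak, from 33999293 to 33999695, was centered 853 bp downstream, also in an intron, with a fold enrichment of 5.27. Both are inside the gene, and their sequences aligned to the *H2-D1* locus at 90.4% identity, with identical runs of up to 33 and 60 bases, although *H2-D1* had no peak of its own within 2 kb. How reads that fit both genes were placed is not given in the sources used here. At *B2m* the peak from 122147966 to 122148228 on chromosome 2 was centered 411 bp downstream of the start in an intron, with a fold enrichment of 4.51, above that of 27.6% of the peaks, and a −log10 q of 4.38. At *Nlrc5* the peak from 94433616 to 94434233 on chromosome 8 was centered 431.5 bp upstream of the first GENCODE start, at 94434356, with a fold enrichment of 6.68, above that of 78.4% of the peaks, and a −log10 q of 8.95. The curated RefSeq start of *Nlrc5* lies further downstream, at 94472763, so this peak counts as a promoter peak only with the GENCODE start. The 81 bases centered on each summit, with the summit base as a capital, are these, with *H2-K1* at chr17:34000074-34000154 on the reverse strand, *B2m* at chr2:122148064-122148144 and *Nlrc5* at chr8:94434056-94434136 on the forward strand:
H2-K1 summit: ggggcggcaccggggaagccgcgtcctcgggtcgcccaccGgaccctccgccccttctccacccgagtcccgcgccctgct
B2m summit: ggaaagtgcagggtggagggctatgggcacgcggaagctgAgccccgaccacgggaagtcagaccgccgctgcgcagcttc
Nlrc5 summit: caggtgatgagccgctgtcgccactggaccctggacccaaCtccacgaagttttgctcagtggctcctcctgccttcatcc
The GC content of these windows was 79.0%, 67.9% and 60.5%. The peaks at *H2-K1* and *B2m* were downstream of the start and did not cover the promoter elements shown for these genes.

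The other 7 genes had no peak within 2 kb of a start. The nearest peak lay 9.27 kb upstream of *H2-T23*, where it was 567.5 bp from the nearest start of *H2-T22*, another class I gene. For *H2-D1* it lay 20.0 kb upstream, close to the start of *Ddx39b*, and for *Tapbp* 14.8 kb downstream, close to the start of *Rgl2*. *Tap1*, *Tap2*, *Psmb8* and *Psmb9* lie side by side, and no peak came closer than 61.2 kb to the first GENCODE start of any of them. The nearest peaks on the flanks of this cluster lay within 2 kb of starts of *Brd2* and of *H2-Ab1*. The vector list had 67 peaks, and the nearest of them to any of the 10 genes was 20.4 Mb away. The peak lists carry no read counts, so how weak an enrichment would still have been called near these genes is unknown.

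**Figure D5:**
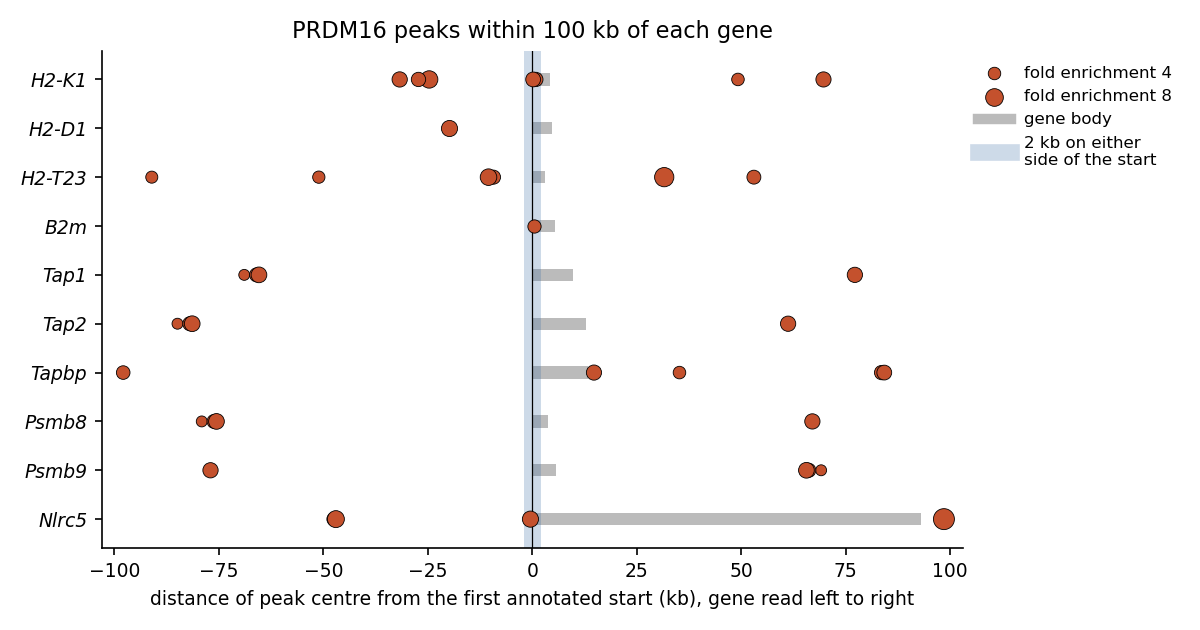
Distance in kb of each PRDM16 peak center from the first annotated start of each gene, with upstream to the left and a point area that grows with fold enrichment. Gray bars are gene bodies and the blue band is 2 kb on either side of the start. Points fall in the band for *H2-K1*, *B2m* and *Nlrc5*, and the cluster of *Tap1*, *Tap2*, *Psmb8* and *Psmb9* has none closer than 61.2 kb to the first start.

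Peaks of the same definition were found at 3 of the 9 tested other class I genes (*H2-Q4*, *H2-Q7* and *H2-T22*), 3 of the 8 other loading genes, 1 of the 4 other inducible proteasome genes (*Psmb10*), 4 of the 14 constitutive proteasome genes and 10 of the 18 interferon-γ and promoter factor genes, which include *Rfxap* and *Nfya*. Of the genes with a promoter peak among the 10, *H2-K1* and *B2m* had log2 fold changes of 0.34 and 0.12 in the aorta and *Nlrc5* one of −0.77, and 0 of the 3 were called. The peaks come from fibroblasts that overexpress PRDM16 and the RNA from whole aortas, so these values stand side by side without a test.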

How the data were processed

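Per the labels, RNA-Seq libraries of thoracic aortas were poly(A)-selected. The authors deposited TPM by gene with 1 column per aorta, and the submitters' processing notes list cutadapt 2.3, STAR 2.7.8a and RSEM 1.3.3 and the builds GRCm38 and mm10. For ChIP-Seq the authors mapped reads with Bowtie2 2.3.4.1, called peaks with MACS2 in each library and deposited position, fold enrichment (a ratio), −log10 p and −log10 q; the control MACS2 used is not stated. The IgG libraries were not analysed here.

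Genes averaging 0.5 TPM or more over the 6 aortas were tested with limma 3.58.1 in R 4.3.3 (mean-variance trend, log2(TPM + 0.1), no covariates), with Benjamini-Hochberg adjustment over 15668 genes and a threshold of 0.05. The procedure was tested on simulated data. The labels give an average read number for each assay but none per library, so the depth of single libraries is unknown. Ratios of TPM were compared by exact permutation tests. Peaks were placed by their center with GENCODE M21 basic starts (GRCm38), which matched 15639 tested genes. Sequences are from RefSeq and GRCm38.p6. The 10 genes and all lists were chosen with earlier results of these data known. From each companion list, called genes, up to 3 with the largest log2 fold change in either direction and the genes of the ratios are named. One gene counted in a companion list is not reported here. Same-numbered aortas were not treated as pairs, since the labels give no shared origin and the correlations of their deviations were −0.0246, −0.07 and −0.00896. Python 3.11.15, pandas 2.3.3, scipy 1.17.1, Biopython 1.88, samtools 1.23.1 and matplotlib 3.10.9 were used. Alternatives were other pseudocounts, filters and scalings, no trend, the replicate number as a block, each aorta left out, other promoter windows, the summit and a stricter q, and, chosen after seeing the data, curated RefSeq starts.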

Additional observations from a re-analysis of the deposited data

How the results depend on the processing

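The number of the 10 genes called by limma was 0 in all 15 alternatives, and their median log2 fold change was 0.09 to 0.19 with 1 aorta left out at a time and 0.23 to 0.26 after the 3 rescalings, beside 0.13 as deposited. Of the 10 genes, 8 kept the sign of their log2 fold change in every alternative, while with 1 aorta left out *H2-D1* ranged from −0.0024 (without Prdm16SMKO aorta 1) to 0.14 and *Tap1* from −0.25 to 0.021 (without Prdm16SMKO aorta 3). Over all genes, 168 were called with the TPM as deposited, 110 without a filter on TPM, 411 after rescaling by median ratio (196 higher and 215 lower), 392 after quantile normalization (189 and 203), 370 after rescaling without mitochondrial genes and the top gene (152 and 218) and 48 without the trend (24 and 24). Each rescaling brought the median of all genes close to 0. With 1 aorta left out, 91 to 141 genes were called, with 91 without control aorta 1, 99 without control aorta 2, 93 without control aorta 3 and 105 without Prdm16SMKO aorta 1. With the replicate number as a block 184 genes were called and 0 of the 10 genes, and the numbers do not pair the aortas. The cause of these shifts was not tested. Promoter peaks were found at 3 of the 10 genes with windows of 1 kb and 5 kb, with the summit and at a q of at most 0.001, at 1 (*Nlrc5*) from 1 kb upstream to 100 bp downstream, where 14.6% of genes had one, and at 2 (*H2-K1* and *B2m*) with curated RefSeq starts, where 43.8% had one. The precision of each value is limited by 3 aortas per group and by depths that are unknown.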
